A study of Rattus norvegicus with 16 samples.

Results

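Control liver of adult male Sprague-Dawley rats was set against a universal rat reference RNA on 4 2-colour Agilent arrays, those of the group titled Liver_Control and called C. The reference is a commercial RNA made from 14 rat cell lines, so each array compares a whole organ with a mixture of growing cultured cells. C comprised 8 male offspring aged 78 to 86 days whose dams had received corn oil alone through gestation and lactation, and which stayed with their birth mothers. The RNA of 2 rats was pooled for each array, so the 4 replicates, numbered 9 to 12 in the labels, are 4 separate pools. The cross-fostered control group, CC, of the same age and sex and with 4 arrays, was used for comparison. Its pups also came from dams given corn oil and were exchanged between such dams at birth. The series holds 16 arrays in 4 groups, and the other 8 arrays, M and MM, belong to offspring of dams dosed with methyl mercury, polychlorinated biphenyls and organochlorine pesticides together, with and without cross-fostering. Liver RNA carried the red dye (Cy5) and reference RNA the green dye (Cy3) on every array.

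The measure throughout is the log2 ratio of liver over reference, so 1 unit is a 2-fold difference and a positive value means more signal from liver. A probe was kept where liver or reference signal was flagged by the scanner as well above background on 3 or 4 C arrays. Of 30367 probes, 18797 were kept, and these stand for 16771 of 26913 features, of which 10674 carry a current gene symbol. A feature was called when its ratio exceeded 2-fold in limma's treat test at a Benjamini-Hochberg adjusted p under 0.05. Values with ± are means and standard deviations over the 4 C arrays. They describe the spread of the pools with noise of the arrays included, while the reference was 1 RNA whose own spread was not measured. Dyes were never exchanged, so a dye effect of a gene and a difference between liver and reference cannot be told apart. In RNA from whole tissue, fewer cells of a type and less RNA per cell cannot be told apart either.

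Hepatocytes make most of the proteins of blood plasma, turn ammonia into urea, release glucose in fasting, make bile acids from cholesterol and clear drugs through cytochrome P450 and conjugating enzymes. Many of these genes are driven by a small circle of transcription factors, among them HNF1, HNF4 and C/EBP proteins and nuclear receptors. Cultured cell lines divide, spread on plastic and seldom keep such functions, and they carry transcripts of the cell cycle, the cytoskeleton and the matrix.

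The 4 arrays measured liver and reference with unequal reach. Liver was well above background at 36.1% to 40.1% of probes and the reference at 62.0% to 62.9%. The median local background of an array was 69 to 73 intensity units in red and 23 to 25 in green. No spot was saturated. Log ratios of any 2 C arrays correlated at 0.966 to 0.985 across features, and 78.0% of tested features had the same sign on all 4 arrays. Spike-in RNAs of known ratio gave a slope of observed on expected log ratio of 0.819 to 0.861 per the file headers, where a slope of 1 would mean no compression. The red signal of repeated probes varied by 31.3% on the array of C replicate 11, against 9.54% to 15.6% on the arrays of the other replicates.

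Control liver differed from the reference in both directions. Of the 16771 features, 1608 were called higher in liver (9.59%) and 1939 were called lower (11.6%), and the median log2 ratio of all features was -0.09. The 2 sides differed in reach: 375 features averaged at least 16-fold higher in liver and 49 at least 16-fold lower. The higher red background (69 to 73 units, against 23 to 25 in green) limits how low a liver value can go. Its part in this difference was not tested. Both channels were above background for 10231 features, of which 1470 were called higher and 1600 lower. The reference alone was above background for 6281 features, and liver alone for 246, of which 138 were called higher. The split between higher and lower calls depends on the scaling: 45.3% of calls were higher here, against 56.2% with a smaller background offset, 35.6% with the scanner's own ratio and 14.95% with median centring.

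**Figure D1:**
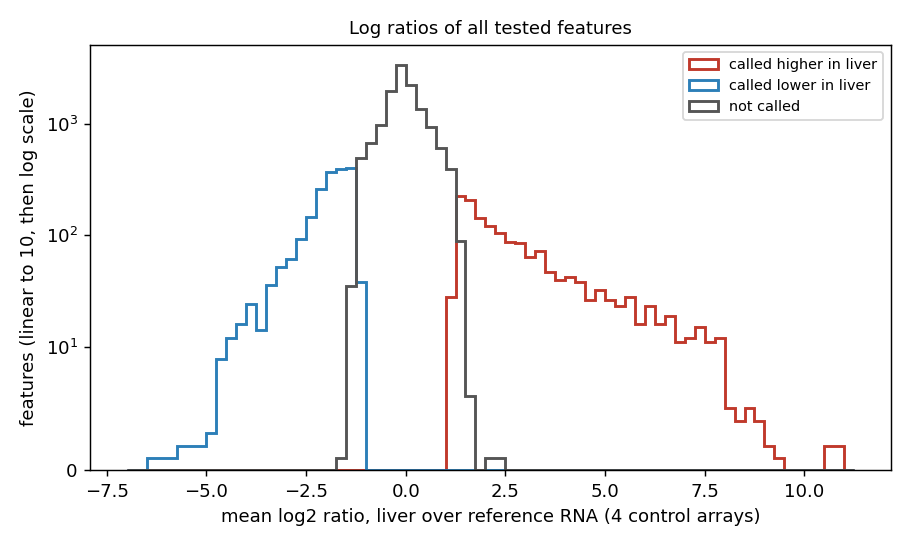
Distribution of the mean log2 ratio, liver over reference RNA, over the 4 C arrays for 16771 features, with the number of features on a scale that is linear to 10 and logarithmic above. Features called higher reach 10.77 and features called lower reach -6.41, so the higher side extends further. The higher red background limits the lower side, and its part in this was not tested.

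The labelled tissue was checked against its defining markers, which were high in liver on all arrays. *Alb*, serum albumin, had log2 ratios of 7.59, 7.63, 8.29 and 7.93 in C replicates 9 to 12. *Apoc1*, a small apolipoprotein, had 8.84, 8.62, 8.35 and 8.71 on the same arrays, *Tf*, transferrin, 4.92, 5.06, 5.42 and 4.82, and *Cyp2c11*, the main P450 of the adult male rat, 7.69, 7.71, 7.59 and 7.52. All 16 values lay above 4. The means were 7.86 ± 0.32 for *Alb*, 8.63 ± 0.21 for *Apoc1*, 5.06 ± 0.26 for *Tf* and 7.63 ± 0.091 for *Cyp2c11*, with limma treat adjusted p values of 2.38e-09, 4.24e-10, 1.69e-08 and 3.48e-10 in that order. Of 15 hepatocyte markers tested, 14 were called higher, with a median of 6.75. The one not called was *Hnf4a*, chosen for mention after its value was seen, with a mean of 1.21 ± 0.31 and liver alone above background.

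The promoters of several genes are shown as examples, picked because they differ in the short elements they carry. The sequences are the 150 bases before the annotated start of each gene, written 5′ to 3′ on the gene's strand, from RefSeq on the GRCr8 build. Capitals mark the HNF1 motif GTTAAT, the TATA motif TATAAA, the CCAAT motif and the cell cycle motif TTTGAA, each on either strand. *Alb* lies at chr14:17906980-17907129 on the minus strand, *Fabp1* at chr4:104749190-104749339 on the plus strand, *Rup2* at chr8:43551457-43551606 on the minus strand, *Cyp2c11* at chr1:246175066-246175215 on the plus strand, *S100a4* at chr2:178388379-178388528 on the plus strand and *Cdk1* at chr20:19265143-19265292 on the plus strand. The first 4 of these genes were higher in liver and the last 2 lower.
Alb: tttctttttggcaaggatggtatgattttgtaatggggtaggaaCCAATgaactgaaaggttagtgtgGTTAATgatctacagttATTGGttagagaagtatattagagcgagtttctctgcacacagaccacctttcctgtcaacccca
Fabp1: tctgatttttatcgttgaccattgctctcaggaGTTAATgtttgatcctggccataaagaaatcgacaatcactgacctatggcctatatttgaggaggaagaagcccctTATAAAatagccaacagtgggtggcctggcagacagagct
Rup2: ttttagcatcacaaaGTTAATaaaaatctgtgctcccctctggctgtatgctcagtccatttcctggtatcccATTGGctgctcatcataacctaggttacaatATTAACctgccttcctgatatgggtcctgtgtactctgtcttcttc
Cyp2c11: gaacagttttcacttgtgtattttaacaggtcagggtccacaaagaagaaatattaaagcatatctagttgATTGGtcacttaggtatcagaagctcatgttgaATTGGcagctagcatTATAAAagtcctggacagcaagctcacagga
S100a4: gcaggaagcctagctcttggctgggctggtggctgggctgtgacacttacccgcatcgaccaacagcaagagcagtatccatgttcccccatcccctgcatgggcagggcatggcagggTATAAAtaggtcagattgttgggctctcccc
Cdk1: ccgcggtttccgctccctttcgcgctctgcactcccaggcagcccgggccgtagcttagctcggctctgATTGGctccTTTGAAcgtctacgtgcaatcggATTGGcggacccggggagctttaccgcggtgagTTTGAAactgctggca

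The window of *Alb* holds GTTAAT beginning 82 bases before the start, between CCAAT motifs at 106 and 65 bases. *Fabp1* holds GTTAAT at 117 and TATAAA at 40 bases, and *Rup2* holds GTTAAT at 135 bases and again on the opposite strand at 46. *Cyp2c11* holds no GTTAAT in its window. Among higher genes whose windows are not printed, *Apoc1* holds GTTAAT, and *Tf*, *Mup4l1*, *Slc27a2* and *Slc27a5* do not. *Cdk1* holds no GTTAAT in its window and has CCAAT on the opposite strand at 81 and 49 bases, with TTTGAA at 72 and 16. Over the 250 bases before the start, GTTAAT was present in 6.47% of 27457 RefSeq promoters and in 4.22% of the 8724 promoters of tested features. It was present in 7.28% of the 975 promoters of features called higher and in 2.41% of the 831 promoters of features called lower. TATAAA occurred in 11.3% of the promoters called higher and 11.2% of those called lower, against 8.02% of tested promoters. For CCAAT the shares were 41.5% and 36.3%, against 35.9% of tested promoters. TTTGAA was found in 11.8% of higher and 12.4% of lower promoters, against 10.6% of tested promoters. Median GC content was 56.4% for the higher set, 60% for the lower set and 59.2% for all tested promoters, so the sets also differ in base composition. Of the leading genes defined below, 19 of the higher and 19 of the lower ones had a promoter in the table. GTTAAT was in 5 of the higher (26.3%) and 1 of the lower ones (5.26%). Median GC content was 44.4% in these higher and 57.2% in these lower promoters, a wider gap than between the called sets. TATAAA and CCAAT were each in 21.05% of the higher and 31.58% of the lower ones. These are matches of letters and do not show binding.

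The 15 genes with the highest ratios, both channels being above background, include carriers of small hydrophobic molecules, lipid-handling proteins, P450s, plasma proteins and a steroid dehydrogenase. *Mup4l1*, of the major urinary protein family that male rat liver secretes, had log2 ratios of 10.59, 10.76, 11.02 and 10.7 in C replicates 9 to 12. *Rup2*, listed with the synonym UP-1, had 10.74, 10.89, 10.71 and 10.45. Their means were 10.77 ± 0.18 and 10.7 ± 0.18, with an adjusted p of 2.71e-10 for both, and the next gene lay more than 1 log2 unit lower. *Fabp1*, the liver fatty acid binding protein, had 9.23, 9.24, 9.31 and 9.22, the smallest spread among these 15 genes, with a mean of 9.25 ± 0.041 and an adjusted p of 2.71e-10. *Slc27a2* and *Slc27a5*, which activate fatty acids and bile acids with coenzyme A, averaged 9.13 ± 0.22 and 8.9 ± 0.20. *Serpina3c*, a serine protease inhibitor, averaged 8.86 ± 0.11, and *Ttr*, the thyroxine carrier transthyretin, averaged 8.53 ± 0.16. *Cyp3a2*, a male-predominant P450, had 8.0, 8.99, 9.08 and 9.02, with replicate 9 about 1 log2 unit below the other replicates. *Cyp4a2*, a fatty acid omega-hydroxylase, had 8.93, 8.81, 8.0 and 8.74, with replicate 11 the lowest. *C4bpb*, a complement regulator, averaged 8.45 ± 0.21, and *Serpinc1*, antithrombin, 8.42 ± 0.10.

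Members of the urinary protein family and of other near-identical families can share signal on the array, so their individual values are uncertain. *Mup5* averaged 8.79 ± 0.12 on its brightest probe and 10.22 on its other probe, and *Mup4l4* averaged 8.6 ± 0.15 and 6.61. *Hsd3b5*, a steroid dehydrogenase of male liver, averaged 8.28 ± 0.20 on its brightest probe and 4.56 on the other. All 3 genes were higher in liver on every probe.

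**Figure D2:**
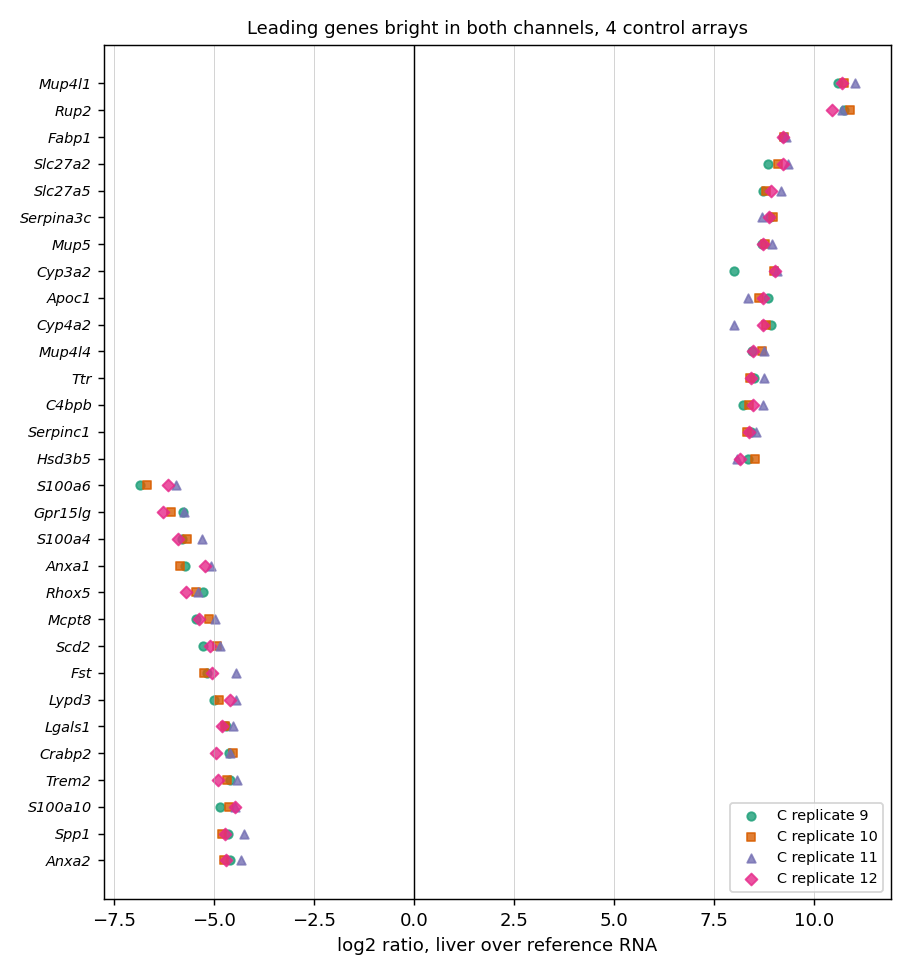
Log2 ratio, liver over reference RNA, on each of the 4 C arrays for the 15 called genes with the highest and the 15 with the lowest means among features above background in both channels. The higher genes lie between 8.0 and 11.02 and the lower genes between -6.85 and -4.24, so no array of either set comes near 0.

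For genes above background in liver alone the reference signal cannot be told from background, so a lower bound of the fold is given, which can be smaller than the fitted ratio. *Slc10a1*, which takes up bile acids from portal blood, had log2 ratios of 7.77, 7.97, 7.7 and 7.69 and was at least 217-fold higher in liver. *Spink1l*, related to pancreatic trypsin inhibitors, was at least 194-fold higher and *Cyp3a23-3a1*, a steroid-hydroxylating P450, at least 142-fold. *Otc*, ornithine transcarbamylase of the urea cycle, was at least 95.7-fold higher and *Fabp7*, known as the brain fatty acid binding protein, at least 94.2-fold. The bounds were 70.2-fold for *Akr1d1*, the bile acid 5-beta-reductase, 62.8-fold for *Hsd17b6*, a steroid dehydrogenase, and 62.1-fold for *Cldn14*, a tight junction claudin. *Sez6*, known from brain, was at least 44.8-fold higher on one probe, while its other probe gave a log2 ratio of 1.14.

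All 18 tested carrier and transport proteins were called higher, with a median log2 ratio of 6.72 and a range of 4.79 to 8.53. Besides *Ttr* and *Alb*, *Ambp*, the precursor of alpha-1-microglobulin, averaged 7.79 ± 0.13 and *Rbp4*, the retinol carrier, 7.75 ± 0.19. Complement components and regulators were called higher in 22 of 24 tested, with a median of 5.16. Among them, *C4bpa*, a partner of *C4bpb*, averaged 8.17 ± 0.18, *C9*, the last component of the membrane attack complex, 7.84 ± 0.13, and *Cfb*, of the alternative pathway, 7.81 ± 0.25. Among coagulation factors and the kallikrein system, 17 of 22 were called higher, with a median of 5.16. *Fga* and *Fgb*, chains of fibrinogen, averaged 7.86 ± 0.23 and 7.47 ± 0.072, and *F12*, factor XII, 7.82 ± 0.18. Of the same list 2 were called lower, among them *F3*, tissue factor, which averaged -2.75 ± 0.34 with liver above background on 1 array.

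Acute phase proteins and serpins were called higher in 18 of 21 tested, with a median of 6.36. *Itih4*, an inter-alpha-trypsin inhibitor chain, averaged 8.05 ± 0.35, *Saa4*, a constitutive serum amyloid A, 7.82 ± 0.082, and *Mug1*, a rodent macroglobulin, 7.46 ± 0.14. The other probe of *Saa4* gave 5.89. *A2m* and *Lcn2* were called lower. *A2m*, the alpha-2-macroglobulin that rises in rat inflammation, had -1.83, -1.86, -1.44 and -1.94. *Lcn2*, an iron-siderophore binding protein induced in inflammation, had -1.11, -1.74, -1.4 and -1.68, and without replicate 12 its mean was -1.42 and its call was lost.

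Apolipoproteins and lipoprotein enzymes were called higher in 16 of 21 tested, with a median of 4.68, and lower in none, or in 2 with the scanner's ratio. *Apob*, the structural protein of very low density lipoproteins, averaged 7.64 ± 0.42 and *Apoa2*, of high density lipoproteins, 7.07 ± 0.077. Iron, copper, zinc and vitamin handling genes were called higher in 18 of 27. *Cp*, the copper-carrying ferroxidase, averaged 7.32 ± 0.31 and *Hp*, the haemoglobin scavenger haptoglobin, 7.15 ± 0.23. *Ttpa*, the vitamin E transfer protein, averaged 6.76 ± 0.28, with the reference above background on 1 array. *Atp7a*, the copper exporter of most non-hepatic cells, was the single member called lower, at -1.47 ± 0.34 with liver above background on 2 arrays. Its call was lost without replicate 9 (-1.38) and without replicate 10 (-1.38).

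**Figure D3:**
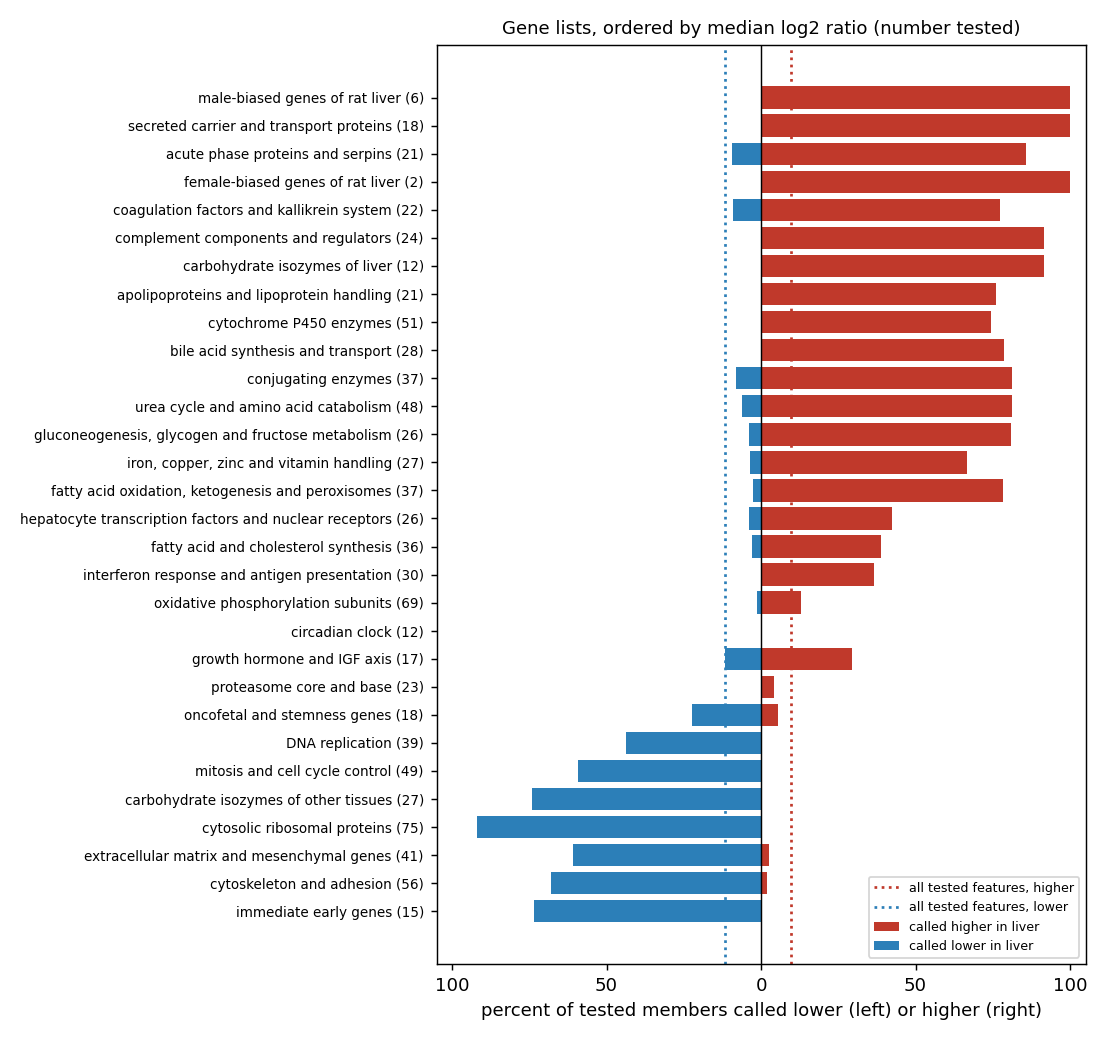
Percentage of tested members of 30 gene lists called higher (right) or lower (left) in C liver, ordered by the median log2 ratio, with the number tested in parentheses and dotted lines at 9.59% and 11.6% for all features. The carrier protein list reaches 100% higher and the ribosomal protein list 92.0% lower, with 12 of its 75 members lower with the scanner's ratio.

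Most drug-metabolising enzymes were higher in liver. Cytochrome P450 genes were called higher in 38 of 51 tested, with a median of 4.36 and a range of -1.23 to 8.77. None was called lower, although 4 were with median centring and 4 with the scanner's ratio. *Cyp3a2* and *Cyp4a2* led, followed by *Cyp2c13*, another male P450, at 7.8 ± 0.30 and *Cyp2c11* at 7.63 ± 0.091. Of the 51, 11 were above background in liver alone and 5 in the reference alone. Conjugating enzymes were called higher in 30 of 37 and lower in 3, with a median of 4.11. *Baat*, which joins bile acids to glycine and taurine, averaged 8.15 ± 0.056. *Sult2a1* and *Sult1c3*, sulfotransferases, averaged 7.6 ± 0.13 and 7.59 ± 0.38, and *Gsta2*, an alpha-class glutathione transferase, 7.59 ± 0.24. The pi-class form went the other way: *Gstp1* had -3.53, -3.41, -3.37 and -3.46, a mean of -3.44 ± 0.07 with an adjusted p of 2.10e-08. *Sult1c2* and *Gstm5* were also called lower, at -1.52 ± 0.20 and -1.39 ± 0.13, each with liver above background on 2 arrays.

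Genes known to be male-biased in rat liver were all called higher. Of the 6, *Cyp3a18* averaged 6.98 ± 0.40, *Cyp2a2* 6.2 ± 0.15 and *Obp3*, an odorant-binding lipocalin, 2.91 ± 0.42, beside *Cyp3a2*, *Cyp2c13* and *Cyp2c11* above. Of 4 female-biased genes, 2 were below background in both channels and 2 were called higher. *Cyp2c7* had 6.47, 6.4, 5.86 and 6.18, a mean of 6.22 ± 0.27. *Cyp2c12*, the classical female form, had 2.89, 5.0, 4.3 and 5.23 and was at least 19.2-fold higher. Its standard deviation over the pools was 1.05, against 0.091 for *Cyp2c11*. Cyp2c genes are close in sequence, and shared signal between *Cyp2c12* and the male forms was not tested.

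Bile acid synthesis and transport genes were called higher in 22 of 28 tested, none lower, with a median of 4.19, and 9 of the 28 were above background in liver alone. The synthesis gene *Cyp7a1* is described with the variable genes below. Urea cycle and amino acid catabolism genes were called higher in 39 of 48. *Arg1*, hepatic arginase, averaged 7.5 ± 0.09, *Hpd*, of tyrosine breakdown, 6.75 ± 0.32, and *Kynu*, of tryptophan breakdown, 6.06 ± 0.26. The 3 members called lower all act in synthesis and not in breakdown. *Phgdh* and *Psat1*, which make serine, had log2 ratios of -4.1, -3.8, -3.45 and -3.69 and -2.84, -3.1, -3.08 and -3.14, and *Asns*, which makes asparagine, had -2.78, -2.92, -2.37 and -2.72. Their means were -3.76 ± 0.27, -3.04 ± 0.14 and -2.7 ± 0.23, with adjusted p values of 1.87e-07, 1.40e-07 and 1.87e-06 in that order.

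Gluconeogenesis, glycogen and fructose genes were called higher in 21 of 26, with a median of 3.05. *Khk*, which phosphorylates fructose, averaged 5.75 ± 0.20. The mitochondrial *Pck2* was the single member called lower, whereas the cytosolic *Pck1*, the gluconeogenic form, averaged 4.77 ± 0.26.

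Isozymes of carbohydrate and amino acid metabolism known from liver were mostly higher there. Of 12 such forms, 11 were called higher and none lower, with a median of 4.92. A second list of 27 holds widespread forms, forms of other tissues and single enzymes of glycolysis, of which 20 were called lower and none higher, with a median of -1.77. Among them 16 have a liver form in the first list, a division made after the values were seen, and 11 of these were called lower, with a median of -1.70. The 11 without one, such as *Gapdh* and *Ldha*, had 9 called lower. Among the aldolases of the second list, *Aldoa* had -3.93, -3.87, -4.16 and -4.19 and *Aldoc* -4.28, -4.11, -3.79 and -4.16. All 8 values were at or below -3.79. A second probe of *Aldoc* gave -1.18.

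For pyruvate kinase, *Pklr* had 4.37, 3.89, 3.95 and 3.77 and *Pkm*, the form of dividing cells, -3.31, -3.49, -2.97 and -3.27, though a second *Pkm* probe gave -0.46. Among its hexokinases, *Hk1* averaged -1.73 ± 0.20, with liver above background on 2 arrays, and was called lower. *Hk2* averaged -0.78 ± 0.18, with liver above background on no array, and *Hk3* 0.31 ± 0.27, and neither was called. Fructose bisphosphatase was represented by *Fbp1* at 8.15 ± 0.08, and the muscle form *Fbp2* averaged -0.19 ± 0.15 and was not called. For the PEP carboxykinases, *Pck1* is given above and *Pck2* averaged -1.45 ± 0.25. The glucose transporter of hepatocytes, *Slc2a2*, averaged 7.21 ± 0.13, against -3.01 ± 0.10 for the widespread *Slc2a1* and -0.68 ± 0.18 for *Slc2a3*, which was not called.

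Glycogen synthase of liver, *Gys2*, averaged 5.07 ± 0.43, and the muscle form *Gys1* averaged -2.53 ± 0.18 on its brightest probe and -0.11 on the other. Liver phosphorylase *Pygl* averaged 1.72 ± 0.074 and lost its call with median centring (0.64), and the brain form *Pygb*, at -0.9 ± 0.20 with no liver signal above background, was not called. *Gls2*, liver glutaminase, averaged 3.78 ± 0.36. *Mat1a*, which makes S-adenosylmethionine in adult liver, averaged 5.7 ± 0.095. *Mat2a* averaged -1.67 on its brightest probe, with no liver signal above background. A second probe of *Mat2a* gave -0.30, and with the median over probes it was not called.

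Phosphofructokinase did not follow the rest. The liver form *Pfkl* had -1.02, -1.25, -1.15 and -1.28, below 0 on every array, and its mean of -1.18 ± 0.12 did not pass the test. It was called lower with median centring (-2.38), with the scanner's ratio (-1.47) and in the authors' deposited table (-1.22). The platelet form *Pfkp* averaged -3.78 ± 0.19, and the muscle form *Pfkm* was at least 2.70-fold lower. Lower glycolysis was called lower for *Tpi1* (-1.81 ± 0.10), *Pgk1* (-2.46 ± 0.43), *Pgam1* (-2.73 ± 0.22), *Eno1* (-1.9 ± 0.13), *Eno2* (-1.35 ± 0.28) and *Eno3* (-3.02 ± 0.25). It was called lower for *Gapdh* (-1.54 ± 0.21) and *Gpi* (-1.77 ± 0.29) too. The call of *Eno2* was lost without replicate 10 (-1.22) and without replicate 12 (-1.34). The muscle mutase *Pgam2* averaged -0.24 ± 0.12 and was not called. *Ldhb* averaged -2.95 ± 0.11 and was called lower. *Ldha*, the lactate dehydrogenase form that predominates in liver and muscle, averaged -0.35 ± 0.29 and was not called, and its mean was above 0 with other scalings (0.75 with a smaller background offset, 1.04 with the scanner's ratio and 0.58 in the authors' deposited table). *Gapdh* kept its sign and lost its call in those same scalings. *Eno1* lost its call with the smaller offset (-1.01) and the scanner's ratio (-0.99), and *Gpi* and *Tpi1* with the smaller offset (-1.25 and -1.19).

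**Figure D4:**
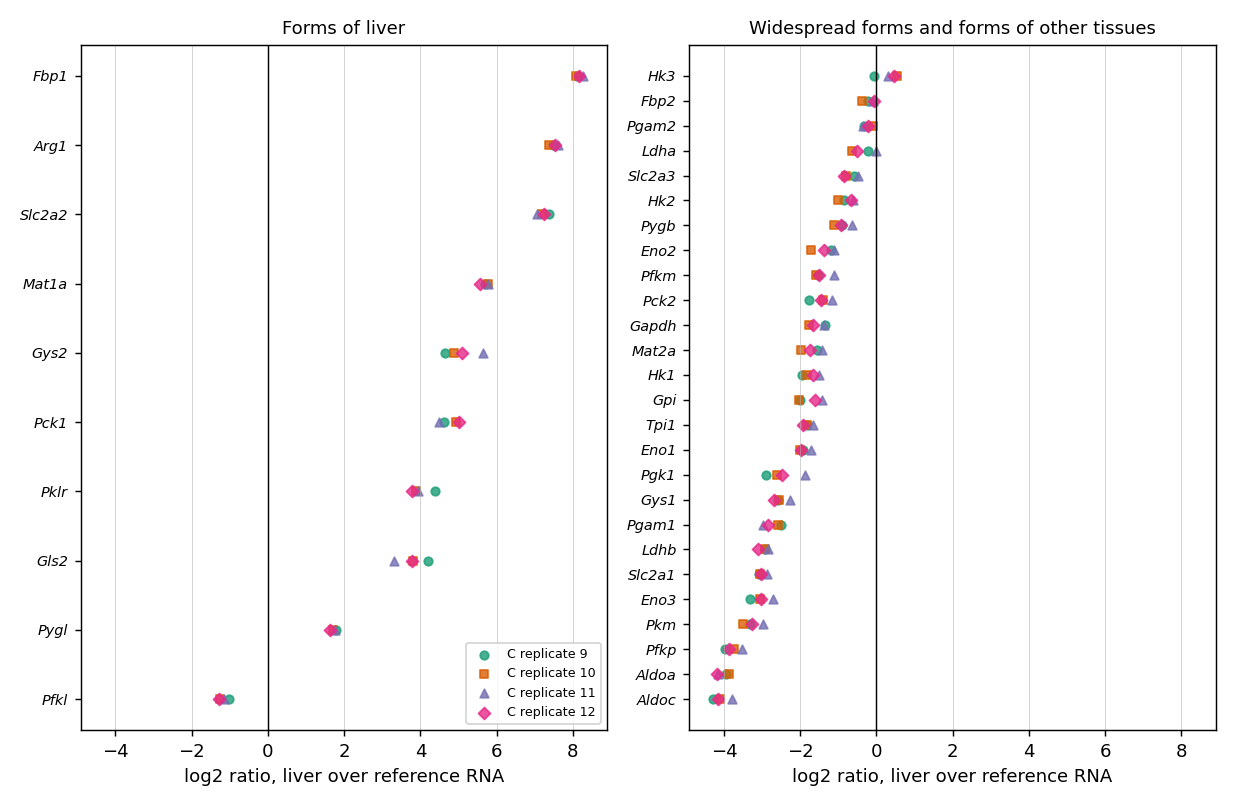
Log2 ratio, liver over reference RNA, on each of the 4 C arrays for 10 isozymes of liver (left) and 26 widespread enzymes or forms of other tissues (right). Of the liver forms drawn, 9 lie above 1, *Pfkl* lies below 0, and the enzymes on the right lie between -4.28 and 0.54.

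Fatty acid oxidation, ketogenesis and peroxisomal genes were called higher in 29 of 37 tested, with a median of 2.41. *Cyp4a1*, a fatty acid hydroxylase, had 6.38, 5.86, 4.65 and 5.91, with replicate 11 more than 1 log2 unit below the others. *Oxct1*, which peripheral tissues need in order to use ketone bodies, was the single member called lower, at -2.76 ± 0.22 with liver above background on 1 array. Fatty acid and cholesterol synthesis was mixed: 14 of 36 were called higher and 1 lower, with a median of 1.02. *Thrsp*, a regulator of lipogenesis, averaged 4.51 ± 0.18, *Scd*, stearoyl-CoA desaturase, 4.51 ± 0.82, and *Insig2*, which holds back sterol synthesis, 4.16 ± 0.54. *Elovl2*, a fatty acid elongase, was at least 15.8-fold higher on its brightest probe, while its second probe gave a log2 ratio of 1.57. *Mvd*, of the mevalonate pathway, averaged -1.5 ± 0.19 and was called lower. The desaturase *Scd2* was among the 15 lowest genes of all, with -5.27, -4.93, -4.84 and -5.11, below -4.8 on every array.

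Of 26 hepatocyte transcription factors and nuclear receptors tested, 11 were called higher and 1 lower, with a median of 1.14. *Nr1h4*, the bile acid receptor, averaged 5.33 ± 0.29 on its brightest probe and 1.51 on the other. *Nr1i2*, the drug sensor PXR, averaged 4.64 ± 0.11, *Creb3l3*, a membrane-bound factor of liver and gut, 4.16 ± 0.23, and *Nr0b2*, a corepressor induced by bile acids, 4.11 ± 0.56. *Cebpd*, an inducible C/EBP factor, had -2.05, -1.72, -2.1 and -2.18 and was called lower. In the growth hormone and IGF axis, 5 of 17 were called higher and 2 lower, with a median of 0.02. Relative to the median of all features that is 0.11, against 0.38 with median centring, 0.04 in the deposited table and -0.04 with the scanner's ratio. *Igfals*, which holds IGF1 in plasma, averaged 6.55 ± 0.15, *Igf1* 4.29 ± 0.18, *Ghr*, the growth hormone receptor, 4.18 ± 0.17, and *Igfbp4*, an IGF binding protein, 2.86 ± 0.38. *Igf2r*, the mannose 6-phosphate receptor, averaged -1.89 ± 0.063 and *Igfbp6*, an IGF2-preferring binding protein, -3.0 ± 0.14, both called lower. None of 12 circadian clock genes was called, although 2 were called higher with the scanner's ratio and 1 lower with median centring. Their median was 0.25, and relative to all features it was 0.34, or 0.04 with median centring.

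The 15 genes with the lowest ratios included several calcium-binding and membrane-binding proteins of motile or cultured cells. *S100a6*, a calcium-binding protein of dividing cells, had log2 ratios of -6.85, -6.67, -5.96 and -6.15, and *S100a4*, its neighbour on chromosome 2, -5.81, -5.67, -5.29 and -5.91. In both genes replicate 11 was the least low. Their means were -6.41 ± 0.42 and -5.67 ± 0.27, with adjusted p values of 2.55e-08 and 9.01e-09. *S100a10* and *Anxa2*, which bind each other at the membrane, averaged -4.61 ± 0.18 and -4.59 ± 0.19. *Anxa1*, another annexin, averaged -5.47 ± 0.38 and *Lgals1*, galectin-1, -4.69 ± 0.12.

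Other genes of this group are known from particular cell types. *Gpr15lg*, a ligand of a lymphocyte receptor, had -5.79, -6.09, -5.75 and -6.27, *Rhox5*, a homeobox gene of testis and placenta, -5.29, -5.44, -5.41 and -5.71, and *Mcpt8*, a granule protease of basophils and mast cells, -5.45, -5.12, -4.98 and -5.37. All 12 values were at or below -4.98. *Trem2*, a receptor of macrophages and microglia, averaged -4.66 ± 0.19, *Spp1*, osteopontin, -4.61 ± 0.25, and *Crabp2*, a retinoic acid carrier, -4.68 ± 0.19. *Lypd3*, of the Ly6 family, averaged -4.73 ± 0.25, and *Fst*, the activin antagonist follistatin, -4.98 ± 0.37 with liver above background on 3 arrays.

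Where liver was not above background on any array, the reference excess is likewise written as a bound. For the genes of this paragraph that bound equals the fitted fold, an estimate against a liver signal not told from background. *Krt6c*, a keratin of stratified epithelium, was at least 69.3-fold lower in liver on its brightest probe. Its probes ranged from -6.11 to -2.03 on the log2 scale. *Grem1*, a BMP antagonist, was at least 22.1-fold lower on its brightest probe, with a second probe at -2.21. The chemokines *Ccl2* and *Cxcl1* were at least 15.7-fold and 13.4-fold lower and the cytokine *Il24* at least 10.9-fold. The bounds were 14.7-fold for *Emp1*, an epithelial membrane protein, 13.8-fold for *Ccn3*, a matricellular protein, and 12.3-fold for *Prrx1*, a mesenchymal homeobox gene. They were 11.6-fold for *Cysrt1* and 10.3-fold for *Bcat1*, the cytosolic branched-chain aminotransferase. Of the 6281 features above background in the reference alone, 339 were called lower and 5018 had no liver array above background. The high red background limits what can be said of these features.

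Cytoskeleton and adhesion genes were called lower in 38 of 56 tested and higher in 1, with a median of -1.89. Their 4 lowest members are given above among the leading genes, and the single higher member was *Cdh2*, N-cadherin, which hepatocytes carry, at 2.24 ± 0.17. Matrix and mesenchymal genes were called lower in 25 of 41, with a median of -1.87. *Timp1* and *Timp2*, inhibitors of matrix proteases, averaged -4.31 ± 0.12 and -4.22 ± 0.11, and *Ccn2*, connective tissue growth factor, -4.16 ± 0.22 with liver above background on 3 arrays. *Col18a1*, the precursor of endostatin, was the single member called higher, at 1.46 ± 0.18, and lost its call with median centring (0.50).

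No tested gene of cell division was called higher here. Over the other scalings and with 1 array left out, 1 mitosis gene was, with a smaller background offset. Under the remaining alternatives, such as no fold threshold, higher calls of these genes were not counted. DNA replication genes were called lower in 17 of 39 tested and higher in none, with a median of -0.87. *Rrm2*, a ribonucleotide reductase subunit, had -5.02, -4.19, -4.17 and -4.91, and its second probe averaged -1.23. *Chaf1b*, a histone chaperone subunit, averaged -3.48 ± 0.18, *Mcm3*, of the replicative helicase, -3.01 ± 0.23, and *Lig1*, the replicative ligase, -2.57 ± 0.20. Mitosis and cell cycle genes were called lower in 29 of 49 and higher in none, with a median of -1.5. *Cdk1*, the mitotic kinase whose promoter is printed above, had -4.85, -4.09, -3.83 and -4.57 and averaged -4.33 ± 0.46 with an adjusted p of 6.92e-07. *Plk1*, another mitotic kinase, averaged -3.48 ± 0.12, and *Ccna2*, cyclin A2, was at least 6.78-fold lower. In 20 of these 49 genes, and in 14 of the 39 replication genes, the reference alone was above background.

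Immediate early genes were called lower in 11 of 15 tested, with a median of -2.10. *Myc*, a driver of growth, had -3.17, -2.94, -2.57 and -2.75, and *Nr4a1*, a nuclear receptor of early response, averaged -3.08 ± 0.25. *Fos* was at least 8.5-fold lower, and *Klf4* averaged -3.18 ± 0.20 with liver above background on 2 arrays. Of 18 oncofetal and stemness genes tested, 4 were called lower. *Bex1* was at least 10.01-fold lower and *Lin28a*, on its brightest probe, at least 7.43-fold, and *Bex4* averaged -2.53 ± 0.21. *Sox2*, a stem cell factor, averaged -2.33 ± 0.28, with a second probe at -0.56. *Lin28a* probes ranged from -2.89 to -0.14. *Afp*, the fetal plasma protein, was instead called higher, with 3.83, 3.54, 3.3 and 3.58 and a mean of 3.56 ± 0.21.

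Cytosolic ribosomal protein genes were called lower in 69 of 75 tested, in a narrow band from -2.61 to -0.37 with a median of -1.78. *Rplp0* had -2.75, -2.71, -2.2 and -2.76, *Rpl3* averaged -2.51 ± 0.07, *Rps7* -2.39 ± 0.14 and *Rpl27a* -2.37 ± 0.069. Both their number and their direction depended on the scaling. Relative to the median of all features, their median was -1.69 here, -0.66 with a smaller background offset and -0.80 in the authors' deposited values, whereas with the scanner's ratio it was 0.08. The number called lower was 10 with the smaller offset, 12 with the scanner's ratio and 21 in the deposited values, and *Rplp0* lost its call with the first 2 of these (-1.21 and -0.53).

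Other housekeeping machinery lay close to the reference. Of 69 oxidative phosphorylation subunits, 9 were called higher and 1 lower, with a median of 0.65, or 0.74 relative to all features. The share called higher lay near the 9.59% over all features, and the share called lower lay below the 11.6% over all features. With median centring the relative median was 0.37 and no subunit was called higher. *Ndufa4* averaged 1.7 ± 0.076, *Ndufv3* 1.66 ± 0.45, *Atp5me* 1.39 ± 0.26 and *Sdha*, a subunit of succinate dehydrogenase, 1.41 ± 0.32. *Cox6a2*, a subunit of heart and skeletal muscle, was at least 2.46-fold lower. Without replicate 12, 3 subunits were called higher. The call of *Sdha* was lost without replicate 10, 11 or 12 (1.42, 1.33 and 1.34), and those of *Atp5me* and *Ndufv3* without replicate 12 (1.38 and 1.64). *Cox6a2* lost its call without replicate 9, 10 or 12 (-1.29, -1.29 and -1.23). Of 23 proteasome subunits, *Psmc6* alone was called, at 1.45 ± 0.38, and the median was -0.02. With median centring 4 subunits were called lower, and the median relative to all features was -0.47. The call of *Psmc6* was lost without replicate 9 (1.32) and without replicate 12 (1.36), with median centring and in the deposited table. Interferon response and antigen presentation genes were called higher in 11 of 30, with a median of 0.99. The class II genes led: *Cd74*, the invariant chain, had 3.65, 4.39, 4.52 and 4.5, *RT1-Bb* averaged 3.5 ± 0.42, *RT1-Da* 3.28 ± 0.40 and *RT1-Db1* 2.64 ± 0.67. With median centring *RT1-Db1* was not called (1.44).

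Class II genes belong to antigen-presenting cells, and markers of resident macrophages were also high. Of 15 Kupffer cell markers tested, 8 were called higher and 1 lower, with a median of 2.0. Over all features, 9.59% were called higher and 11.6% lower. *Clec4f*, a lectin of rodent Kupffer cells, had 6.44, 6.79, 6.26 and 6.44, and the C1q chains *C1qa*, *C1qb* and *C1qc* averaged 5.43 ± 0.20, 4.26 ± 0.35 and 3.18 ± 0.47. *Lyz2*, lysozyme of myeloid cells, was called lower, at -3.01 ± 0.38. The part of macrophage RNA in the class II ratios was not tested. Of 9 sinusoidal endothelial markers, *Kdr*, a VEGF receptor, was called higher at 5.62 ± 0.45 and *Lyve1* was at least 7.72-fold higher, while 5 were called higher with a smaller background offset and 6 with the scanner's ratio. Of 10 stellate cell markers, 1 was called higher (10%) and 1 lower (10%), near the shares over all features. *Lrat*, which stores retinol as esters, was at least 7.61-fold higher. *Acta2*, smooth muscle actin, averaged -1.57 ± 0.22 and was called lower. Of 7 cholangiocyte markers none was called higher and 3 were called lower: *Spp1*, *Krt7* at -2.76 ± 0.13 and *Cldn4*, at least 3.48-fold.

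Blood cell markers were uneven, and are to be read beside the 9.59% called higher and 11.6% called lower over all features. Of 6 erythroid genes, 4 were called higher, among them *Hbb* with 6.71, 6.73, 6.91 and 6.62 and a second probe at 4.90. *Hbb-b1* averaged 6.03 ± 0.31, *Hba-a1* 4.28 ± 0.23 and *Alas2*, of erythroid haem synthesis, 2.92 ± 0.27. Globin genes are near-identical copies and may share signal. Of 12 T and NK cell markers, *Ccl5* alone was called higher, at 3.17 ± 0.52, and 5 were called lower, or 8 with the scanner's ratio. The 5 included *Cd3d* at -2.53 ± 0.15, *Cd3g* at -3.2 ± 0.19, *Zap70* at -2.01 ± 0.16 and *Nkg7* at -1.95 ± 0.20, with liver above background on 4, 1, 3 and 4 arrays in that order. Of 4 B cell markers, *Pax5* averaged 1.48 ± 0.22 and was called higher, though not with median centring (0.39), *Cd79b* averaged -1.51 ± 0.13, and *Mzb1* was at least 2.63-fold lower.

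Markers of other organs were mostly near 0 or below background. A count of 1 in a short list says little beside the 9.59% higher and 11.6% lower over all features. Of 12 pancreatic acinar genes, 7 were below background in both channels and *Cela1* was at least 3.02-fold lower. None of 6 tested endocrine pancreas genes and none of 5 tested kidney tubule genes was called. Of 6 intestinal genes, *Fabp2* was at least 6.35-fold higher and *Cdx2* at least 4.47-fold lower. Of 16 muscle genes, 4 were called lower: *Myh3* was at least 7.25-fold lower, *Tnnt2* averaged -2.69 ± 0.22, *Tnnc1* -2.26 ± 0.24 and *Myl4* -1.22 ± 0.12. With the scanner's ratio 10 muscle genes and 3 endocrine pancreas genes were called lower. Single genes of other lists passed the test. *Cidec*, a lipid droplet protein, averaged 3.81 ± 0.20, *Pomc* 1.82 ± 0.34 and *Th*, tyrosine hydroxylase, 1.3 ± 0.19. With median centring neither *Pomc* (0.92) nor *Th* (0.34) was called. The calls of *Th* and *Myl4* were lost without replicate 9 (1.26 and -1.21), without replicate 10 (1.26 and -1.24) and without replicate 12 (1.31 and -1.17). *Retn* averaged -3.49 ± 0.084 and *Mcpt1*, a mast cell protease, -3.84 ± 0.27. Mesenchymal markers of cultured cells were called lower in 6 of 9, among them *Col1a2* at -4.15 ± 0.27, *Vim* at -3.56 ± 0.14, *Col1a1* at -2.49 ± 0.21 and *Col3a1* at -2.34 ± 0.12.

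The pools of C differed little from each other for most genes. Over 9611 features with liver above background on all 4 arrays, the median standard deviation of the log2 ratio was 0.166 and the 95th percentile 0.423. The liver channel had a median of 0.170 and the reference channel 0.0514, so the spread lay mainly in the red channel. Repeated probes also varied more in red (9.54% to 31.3%) than in green (6.05% to 8.30%). Differences between pools and noise of the red channel cannot be told apart here. A standard deviation above 0.5 was found in 241 features and above 1 in 14. Fatty acid and cholesterol synthesis had a median of 0.333, P450 genes 0.263 and oxidative phosphorylation subunits 0.135.

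In the 10 named genes with the largest standard deviation, single pools stood apart in some and all 4 were spread out in others. *Klkb1*, plasma prekallikrein, had 0.89, 5.38, 4.73 and 4.67 in replicates 9 to 12, so 1 pool accounted for its spread. The other 12 arrays of the series, those of CC, M and MM, lay between 3.33 and 5.80. The pool of 2 rats in replicate 9 was thus below every other array. M and MM came from dosed dams and lay on another slide than C, so the range of the 12 arrays mixes exposure, slide and pool. *Cyp7a1*, the rate-limiting enzyme of bile acid synthesis, had 4.53, 3.81, 1.5 and 3.73, lowest in replicate 11. *Sult2a6*, a bile acid sulfotransferase, had 5.9, 3.4, 2.89 and 5.27, and *Pnpla5*, a lipase-family gene, 4.35, 0.55, 1.7 and 3.0. Both were highest in replicate 9 and lower in replicates 10 and 11 than in replicate 12.

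*Elovl6*, a fatty acid elongase, had 1.18, -1.45, -0.63 and -1.32, above 0 in replicate 9 alone, and the other 12 arrays lay between -1.49 and -0.52. *Cyp2c12* and *Dhrs7l1*, a dehydrogenase by its name, were lowest in replicate 9, with 3.11, 5.44, 5.18 and 4.1 for *Dhrs7l1*. *Spink1* had 4.19, 2.46, 1.67 and 4.06, *Retsat*, retinol saturase, 2.1, 1.31, 0.32 and 2.78, and *Bcl6*, a repressor in lipid and sex-biased gene control, 0.59, -0.71, 0.64 and 1.8. The other 12 arrays lay between 1.73 and 4.28 for *Spink1*, 0.27 and 3.32 for *Retsat* and -0.65 and 1.87 for *Bcl6*, with 1 control pool just below that range for *Spink1* and 1 for *Bcl6*. Neither *Pnpla5* nor *Retsat* was called with all 4 pools, and each was called higher with 1 pool left out: *Pnpla5* without replicate 10 (3.02) and *Retsat* without replicate 11 (2.07). For *Klkb1*, *Pnpla5*, *Sult2a6*, *Cyp7a1*, *Spink1*, *Dhrs7l1* and *Cyp2c12* the reference was above background on no array, so the values printed are fitted ratios against a signal not told from background.

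**Figure D5:**
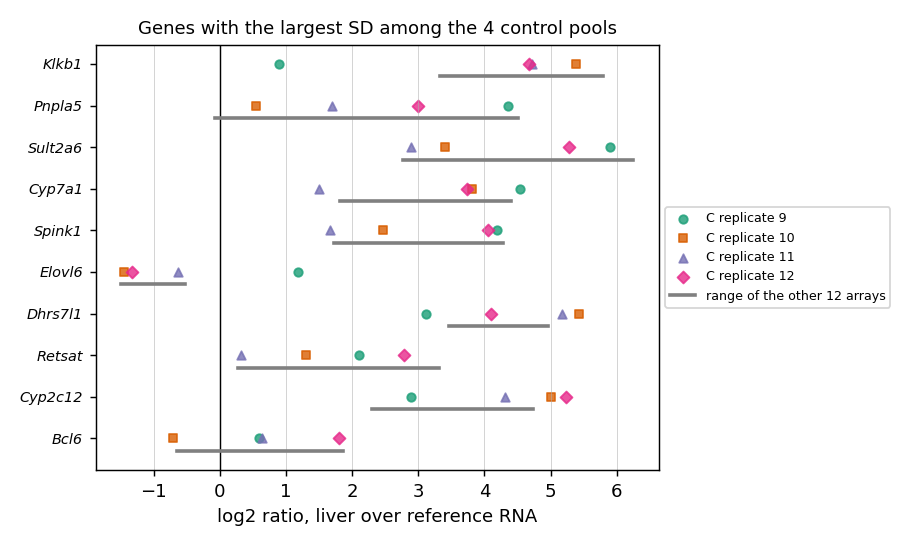
Log2 ratio, liver over reference RNA, on each of the 4 C arrays (symbols) for the 10 genes with the largest standard deviation, with grey lines for the range of the other 12 arrays of the series. *Klkb1* in replicate 9 lies at 0.89, below the grey line that begins at 3.33, and *Elovl6* in replicate 9 lies at 1.18, above its line. The 12 arrays include M and MM, from dosed dams and on another slide.

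The ratios of C were set against those of CC, whose arrays lay on the same slide. Of 16771 features, 0 were called different between C and CC by limma's moderated test at an adjusted p under 0.05 (0%), and 277 had an unadjusted p under 0.05 (1.65%). For 99.4% of features the 95% confidence interval of the difference lay within 2-fold. The features include 5018 with the reference alone above background and no liver array of C above it. The share without these 5018 was not computed. *Alb* averaged 7.86 in C and 7.73 in CC, and *Cyp2c11* 7.63 in C and 7.67 in CC. *Apoc1* averaged 8.63 in C and 9.02 in CC, a difference of -0.39 with a standard error of 0.11 and an adjusted p of 1.00. *Sult2a6* averaged 4.37 in C and 5.45 in CC, a difference of -1.09 with a standard error of 0.58, and *Klkb1* 3.92 in C and 4.51 in CC. *Mup4l1* averaged 10.77 in C and 10.76 in CC. A value missing the threshold does not show that the groups are alike.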

How the data were processed

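Liver RNA (Cy5) and universal reference RNA (Cy3) were hybridised to 2-colour Agilent arrays, and the authors deposited scanner text files made with Agilent Feature Extraction 11.0.1.1, per the file headers, with the mean red and green intensity, background and detection flags of each spot. The authors also deposited a value table. Its values tracked the log2 ratio of Cy5 over Cy3 computed here with loess and no background correction (r 0.991 to 0.996). Array medians were -0.04 to -0.03, and the centring of the deposited values is not stated in the labels or headers used here.

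Intensities were corrected with normexp (offset 50) and loess within each array in limma 3.58.1 (R 4.3.3), with control spots at weight 0 and the 903 to 1138 spots per array carrying outlier flags left out. Spots of a probe were averaged, and the brightest kept probe stood for a feature. Of 1857 features with several kept probes, 416 had probes of opposite mean sign, 28 of them called. Symbols came from the files' accessions through the RefSeq table of GRCr8 (18005 probes matched). The files' own coordinates, on an older build, were not used. Calls came from limma treat (fold threshold 2) on the 4 C arrays, an intercept-only fit, and C was compared with CC by limma's eBayes on the 8 arrays of their shared slide. The treat fit was tested on simulated data, and the fit of C against CC was not.

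Bounds ("at least N-fold") compare the mean of the measured channel with a floor, after Aquantile scaling, and are open to dye bias. On each array the floor is the higher of the dim signal and the lowest signal well above background. Where the dim signal is the higher on every array, the bound equals the fitted fold and is an estimate, not a guaranteed minimum. This was so for every gene given as at least N-fold lower and for *Akr1d1*, *Lyve1*, *Lrat* and *Fabp2*. The number of arrays limits the precision. Named genes were the 15 highest and 15 lowest called genes above background in both channels, the 10 largest bounds each way, up to 4 called members per direction of each list, all isozymes and sex-biased genes, the 4 markers and the 10 largest standard deviations, and a few of these are not reported here. The members, lists and tests were chosen with earlier results of these data known. The scanner's own log10 ratio, deposited by the authors in the same files, was turned into log2 and used as an alternative. Other alternatives were the background correction, the normalization, spike-in probes as zero, the filter, outlier spots, the choice of probe, the slide row and the test.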

Additional observations from a re-analysis of the deposited data

Results flagged for a closer look

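Among the 234 genes chosen by the naming rule, 17 had 1 control pool whose gap to the nearest other pool made up more of the range of the 4 pools than Dixon's critical value allows at the 95% level. Chance flags about 1 gene in 20, and genes of one array are not independent. Replicate 11 was the separate pool in 10 of the 17, and its array also had the largest variation of repeated red probes (31.3%). What part that has in these values was not tested.

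Replicate 11 stood apart in *Acta2* (gap over range 0.942, at -1.23 against -1.69 to -1.66), *Ccl2* (0.893), *Cdx2* (0.925), *Cela1* (0.923), *Il24* (0.901), *Krt6c* (0.856), *Oxct1* (0.836) and *Rplp0* (0.917, at -2.20 against -2.76 to -2.71), all with a less negative log2 ratio. In *Khk* (0.838) it was higher and in *Pomc* (0.858) lower than the other pools. Liver was not above background on any array for *Ccl2*, *Cdx2*, *Cela1*, *Il24* and *Krt6c*.

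Replicate 9 stood apart in *Klkb1* (0.841, at 0.89 against 4.67 to 5.38), *Cyp3a2* (0.919, at 8.0 against 8.99 to 9.08) and *Cd74* (0.847, at 3.65 against 4.39 to 4.52). Replicate 10 stood apart in *Ccl5* (0.881, at 3.94 against 2.83 to 2.96), *Ghr* (0.911, at 3.91 against 4.24 to 4.28) and *Igf2r* (0.945, at -1.80 against -1.93 to -1.92). Replicate 12 stood apart in *Ambp* (0.839, at 7.60 against 7.83 to 7.88).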

How the results depend on the processing

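No called feature was called in the opposite direction under any of the 22 alternatives run on the calls. The 1608 higher and 1939 lower calls became 891 and 5069 with median centring in place of loess, 2420 and 4375 with the scanner's ratio, 5317 and 6857 with no fold threshold, and 808 and 421 with a 4-fold threshold. Leaving out 1 C array gave 1470 to 1680 higher and 1739 to 2034 lower calls. The median of all features moved to -0.57 with median centring and -0.54 with the scanner's ratio, and values are best read against it. In the functional lists with 5 or more members called in their main direction, the number called that way moved by over 1.5 times as follows. With a background offset of 10, 10 ribosomal proteins were lower and 29 oxidative phosphorylation subunits higher. With median centring, 27 DNA replication genes were lower, and 7 lipid synthesis genes, 5 interferon genes and 0 oxidative phosphorylation subunits higher. With the scanner's ratio, 30 replication genes and 12 ribosomal proteins were lower and 22 subunits higher, and the deposited values gave 21 ribosomal proteins lower and 15 subunits higher. Leaving out 1 array gave 3 to 7 subunits higher, and slide row 1 alone gave 5. With no fold threshold, 35 replication and 45 mitosis genes were lower, and 25 lipid synthesis, 8 growth hormone axis, 20 transcription factor, 22 interferon and 56 oxidative phosphorylation genes higher. With a 4-fold threshold, 7 replication, 10 mitosis, 9 isozymes of the second list, 25 cytoskeleton, 4 ribosomal, 16 matrix and 5 immediate early genes were lower, and 8 lipid synthesis, 6 transcription factor, 3 interferon and 0 oxidative phosphorylation genes higher. Smaller counts moved as well. With the scanner's ratio, 10 muscle, 8 oncofetal, 8 T and NK cell, 5 growth hormone axis, 5 neutrophil and mast cell and 4 P450 genes were lower. With median centring, 4 genes each of the P450, coagulation, iron and vitamin, lipid synthesis, growth hormone axis and proteasome lists were lower. Of the 234 genes chosen for naming, median centring took the call from 11 and gave one to 4, and the scanner's ratio took it from 3 and gave one to 7, *Hk2*, *Slc2a3* and *Pygb* being called lower under both. Uncalled genes that changed sign were *Ldha* (0.75, 1.04 and 0.58 with the smaller offset, the scanner's ratio and the deposited table), *Bcl6* (-0.59 with median centring and -0.062 in row 1) and *Hk3* (-0.39 with median centring). The cause of these shifts was not tested. The count between C and CC stayed at 0 with a slide-row term and without each of the 8 arrays in turn. No paired analysis was possible because C shares no replicate number with CC. Without dye exchange, a second reference or more arrays, genes dim in red have only ratios against a signal not told from background.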
